A study of Mus musculus with 26 samples.

Results

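The clonotypes described here are spleen IgM heavy chains with a long or a short CDR3 (complementarity-determining region 3), the most variable loop of an antibody. They were selected on CDR3 length alone: 16 or more amino acids was called long, and 8 or fewer was called short. A clonotype was a V gene, a J gene and a junction nucleotide sequence, and its CDR3 was the junction without its first and last residue. Of 753054 spleen IgM clonotypes summed over 4 replicates, 67036 were long and 83031 were short, together 150067; the whole series held 1674869 clonotypes of all isotypes. The remaining 602987 spleen IgM clonotypes, of 9 to 15 amino acids, are called middle. Because length chose the classes, the lengths themselves and the parts that add up to them are given as descriptions without a test.

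The series sequenced B cell receptor heavy chains in 26 libraries. Spleen, lymph node and skin each had 4 biological replicates of 2 technical libraries, and a positive control had 2 libraries. All mice were labelled WT and all were labelled with the treatment "S. epidermidies association", as the labels spell it, that is, with the skin bacterium *Staphylococcus epidermidis*; neither unassociated mice, nor a strain or an age, is given. The libraries titled spleen carry ear skin in their tissue field, and the title was followed. The labels give B cells as the cell type, and heavy-chain transcripts alone hold no other marker by which to check it. The spleen replicates held 65472, 752551, 271524 and 354527 IgM copies, a copy being 1 unit of the deposited count. Replicate 1 stood apart: it had 15939 IgM clonotypes against 180556 to 325857 in the others, and 42.1% of its long clonotypes had a single copy against 83.8% to 92.2%. In it 21.4% of long and 11.3% of short clonotypes had a junction 1 nucleotide from a clonotype with more copies. In the other replicates that was 1.53% to 2.37% of long and 5.87% to 9.82% of short clonotypes. The origin of such clonotypes was not tested.

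A heavy-chain CDR3 is made when a V, a D and a J segment are cut and joined in a developing B cell. Nucleases trim the ends, and terminal transferase adds untemplated bases, so the length reflects the segments used, how much of each was lost and how much was added. The junction runs from the conserved cysteine at the end of V to the conserved tryptophan in J. IgM is the first class a B cell expresses, with IgD beside it on mature naive cells; class switching later replaces it by IgG, IgA or IgE, and somatic mutation in germinal centres changes the V segment.

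The sequences below show how the classes are built. In each replicate and class the clonotype with most IgM copies among those in both technical tables was taken, and then the clonotypes of each class found in most replicates. Small letters at the left match the usual start of junctions with that V gene and small letters at the right the usual end with that J gene. Each match stops at the first different base. Capitals mark the stretch between, which holds D bases and added bases. Where a V or J base is changed, the V or J bases inward of it also stand in capitals, as in both clonotypes of replicate 3. The stretch can thus be overstated.
Largest long, replicate 1, IGHV1-53 and IGHJ4: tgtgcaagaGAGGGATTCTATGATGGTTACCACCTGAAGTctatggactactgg
Largest long, replicate 2, IGHV1-77 and IGHJ4: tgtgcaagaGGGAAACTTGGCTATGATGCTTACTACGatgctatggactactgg
Largest long, replicate 3, IGHV14-3 and IGHJ4: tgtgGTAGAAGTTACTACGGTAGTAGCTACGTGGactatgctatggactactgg
Largest long, replicate 4, IGHV6-3 and IGHJ1: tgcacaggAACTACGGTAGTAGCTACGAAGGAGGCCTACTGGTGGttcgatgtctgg
Largest short, replicate 1, IGHV3-6 and IGHJ2: tgtgcaagCTATAGTAactttgactactgg
Largest short, replicate 2, IGHV6-6 and IGHJ2: tgtaccCCAACTGGGACGAGctactgg
Largest short, replicate 3, IGHV1-80 and IGHJ2: tgtgGAAGAGGGATCCCTCCtgactactgg
Largest short, replicate 4, IGHV14-4 and IGHJ3: tgtactaggtttgcttactgg
Long, found in 3 replicates, IGHV1-62-2 and IGHJ1: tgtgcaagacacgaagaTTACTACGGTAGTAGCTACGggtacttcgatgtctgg
Long, found in 3 replicates, IGHV1-62-2 and IGHJ1: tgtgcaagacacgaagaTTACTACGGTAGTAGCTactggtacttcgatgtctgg
Short, found in 4 replicates, IGHV6-3 and IGHJ2: tgcacaggCAGTAactttgactactgg

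The largest long clonotypes ended in IGHJ4 in 3 replicates and in IGHJ1 in the fourth, and their stretch between was 28 to 37 bases. The largest short clonotypes ended in IGHJ2 in 3 replicates and in IGHJ3 in the fourth, with 0 to 16 bases between. In the IGHV14-4 and IGHJ3 clonotype of replicate 4, the V letters run straight into the J letters. Copies of these clonotypes ranged widely. The long ones had 91, 3791, 411 and 360 IgM copies in replicates 1 to 4, and the short ones 123, 4102, 946 and 530. The 4102 copies of the short clonotype of replicate 2 were split unevenly, 3987 and 115, between its 2 technical libraries. The long clonotype of replicate 2 had V mismatches at 2.68% of aligned bases and carried 285 IgA and 56 IgG copies in the same spleen, and that of replicate 1 carried 42 IgA copies. The short IGHV3-6 clonotype occurred in all 4 spleens, with 123, 251, 74 and 137 copies, and carried 244 IgA copies over them; the shared short IGHV6-3 clonotype carried 18. Whether some copies of a clonotype moved between libraries was not tested.

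Long clonotypes made up 9.90%, 8.80%, 9.08% and 8.83% of the IgM clonotypes of replicates 1 to 4, and short clonotypes 10.3%, 11.1%, 11.04% and 10.9%. By copies the classes lay further apart, with 9.42%, 7.14%, 8.06% and 7.51% for long and 10.3%, 13.8%, 13.0% and 12.0% for short. The short share was above the long share in every replicate by both counts. The longest CDR3 had 26 to 36 amino acids and the shortest 2 to 4. Just inside and outside the short limit, 4.68% ± 0.236 of clonotypes had 8 residues and 6.76% ± 0.158 had 9 (SD, n = 4). At the long limit, 5.09% ± 0.216 had 16 and 8.17% ± 0.169 had 15. IGHJ2 use stepped from 59.4% at 8 residues to 55.8% at 9, and from 18.3% at 15 to 14.2% at 16, so the limits cut a graded range.

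**Figure D1:**
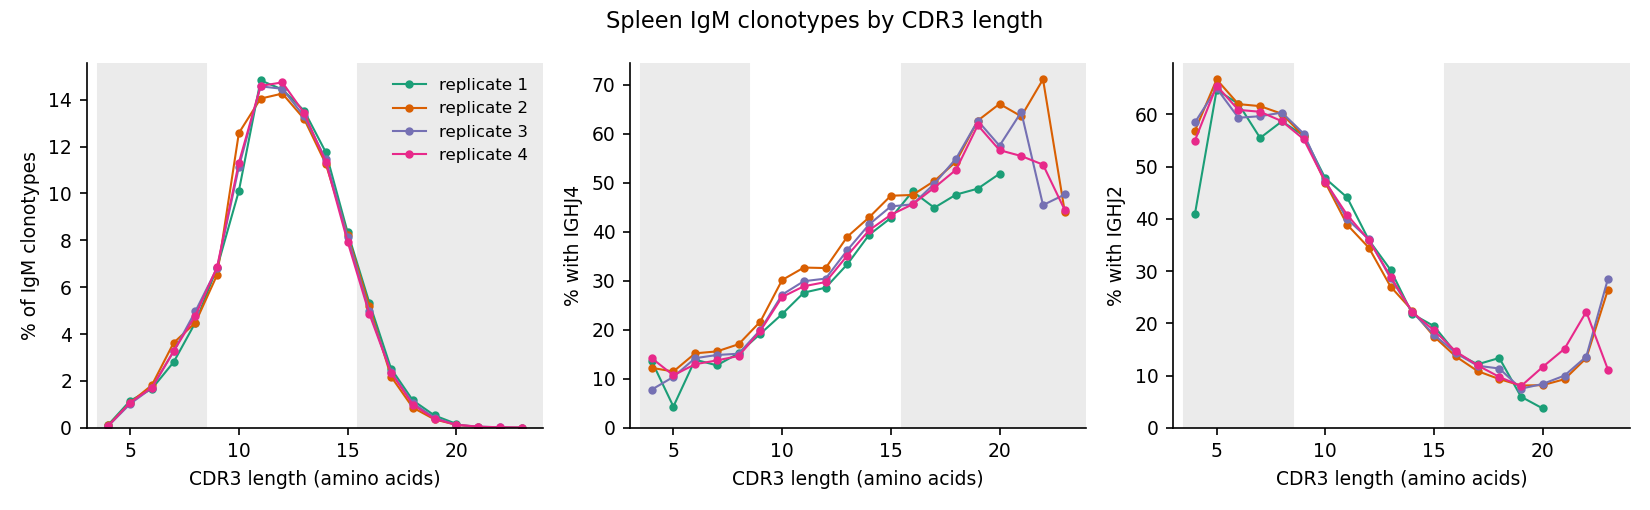
Spleen IgM clonotypes by CDR3 length in amino acids: percent of clonotypes (left), percent with IGHJ4 (middle) and percent with IGHJ2 (right), 1 line per replicate, points for lengths of 4 to 23 with 20 or more clonotypes, grey bands for short and long. IGHJ2 lies near 60% at 8 residues and near 14% at 16, and IGHJ4 near 16% and 47%, with the 4 replicates close together except at the sparse ends.

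A long junction was longer in every one of its parts, most of all between the V and J ends. The stretch between averaged 28.8 ± 0.628 bases in long, 17.9 ± 0.446 in middle and 8.70 ± 0.0961 in short clonotypes (SD, n = 4). The J end matched over 17.98 ± 0.333 bases in long and 10.7 ± 0.0527 in short clonotypes, and the V end over 9.40 ± 0.171 and 7.75 ± 0.122. No stretch at all was left between V and J in 0.930% ± 0.0326 of short clonotypes and in 0 of the long ones with a usable V start. Short junctions thus matched the usual J end over fewer bases as well as holding less between the ends.

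**Figure D2:**
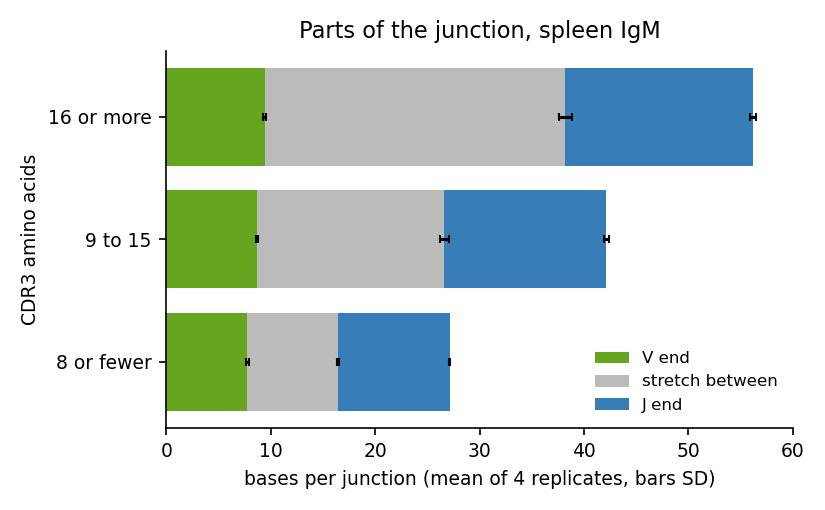
Mean bases per junction that match the usual V start (green), lie between (grey) and match the usual J end (blue), by class, mean of 4 replicates with SD bars at the right edge of each part. The grey part runs from 8.70 bases in short to 28.8 in long clonotypes, and the blue part from 10.7 to 17.98.

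Frequent stretches of 10 bases between the ends were picked in the middle class, and each was then searched for in whole junctions, in the reading direction alone. The stretch ctacggtagt, which the D segment IGHD1-1 is known to carry, was in 53.5%, 58.3%, 59.1% and 58.6% of long clonotypes of replicates 1 to 4. It was in 18.7% ± 0.450 of middle clonotypes and in 0.734%, 0.798%, 0.742% and 0.701% of short ones (SD, n = 4). A later part of the same D segment, tagtagctac, was in 27.2% ± 1.57 of long and 0.455% ± 0.0738 of short clonotypes, and overlaps the first by 4 bases. The stretch tatgattacg, known from IGHD2-4, was in 8.10% ± 0.452 of long and 0.526% ± 0.0646 of short clonotypes. The stretch gatggttact, known from IGHD2-3, differed less: 3.85% ± 0.287 of long, 4.38% ± 0.324 of middle and 1.06% ± 0.0646 of short clonotypes held it. A junction with few bases between its ends has little room for 10 in a row, so these shares describe the junctions and do not count D segments. In the clonotypes printed above, the IGHD1-1 stretch can be read in the largest long ones of replicates 3 and 4 and in both long ones shared by 3 spleens.

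J gene use was nearly turned over between the classes. The 4 J genes lie on chromosome 12 (GRCm38.p6, the mm10 sequence): Ighj1 at chr12:113429781-113429833, Ighj2 at chr12:113429468-113429515, Ighj3 at chr12:113429085-113429132 and Ighj4 at chr12:113428514-113428567, where the heavy-chain locus is read towards smaller coordinates. The usual junction ends in the middle class are shown because the genes give junctions of unequal length.
IGHJ1: actggtacttcgatgtctgg
IGHJ2: ctactttgactactgg
IGHJ3: ctggtttgcttactgg
IGHJ4: actatgctatggactactgg
IGHJ1 and IGHJ4 gave 20 bases and IGHJ2 and IGHJ3 gave 16, so that J use and length share part of the sequence.

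IGHJ4 was in 47.6%, 49.9%, 48.9% and 48.3% of long clonotypes of replicates 1 to 4 and in 13.1%, 15.7%, 14.4% and 13.7% of short ones. IGHJ1 was in 34.0%, 34.9%, 34.6% and 34.6% of long and in 8.87%, 7.19%, 6.98% and 7.08% of short clonotypes. For both genes every long value lay above every short value, by a factor of 3.42 for IGHJ4 and 4.58 for IGHJ1. IGHJ2 ran the other way, with 13.1%, 12.2%, 12.9% and 13.0% of long against 58.8%, 61.5%, 60.4% and 60.2% of short clonotypes. IGHJ3 was in 3.99% ± 0.994 of long and 18.02% ± 1.66 of short clonotypes (SD, n = 4). The middle class lay between for all 4 genes, at 20.4%, 35.1%, 11.7% and 32.8% from IGHJ1 to IGHJ4. Each difference had the same sign in 4 of 4 replicates and an exact paired permutation p of 0.125 (two-sided, adjusted p = 0.125 over the 4 genes). That is the smallest p that 4 pairs allow, so no single-value comparison between long and short can pass 0.05 in this design.

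Seen from the J genes, 15.3% of all IGHJ1 and 13.3% of all IGHJ4 clonotypes were long, against 3.16% of IGHJ2 and 2.82% of IGHJ3 clonotypes. Short ones made up 18.8% of IGHJ2 and 17.2% of IGHJ3 clonotypes, against 3.89% and 4.93% of IGHJ1 and IGHJ4. Within IGHJ4, long clonotypes matched the usual end over 18.7 bases and short ones over 12.7, and within IGHJ2 over 14.97 and 9.87.

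V gene use also differed widely. In edgeR's quasi-likelihood test on clonotypes per V gene, with the replicate as a block, 66 of 86 V genes tested (76.7%) differed between long and short at an adjusted p under 0.05; 86 of the 132 V genes seen in these clonotypes had enough of them to pass the low-count filter. Of the 86, 34 (39.5%) were higher in long and 32 (37.2%) higher in short clonotypes. Without TMM scaling 41 were called higher in long and 29 higher in short, so the balance of directions depends on that scaling. A call was thus the rule for a V gene here, and what separates genes is size. V gene use was measured apart from length, but the V end is a part of the junction, so V use and length are not free of each other.

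The strongest V gene of the long class with a regular junction was IGHV1-62-2 (Ighv1-62-2, chr12:115446417-115446710), a member of the large IGHV1 or J558 family. It made up 6.34%, 6.21%, 5.97% and 6.52% of long clonotypes in replicates 1 to 4 and 0.0612%, 0.295%, 0.331% and 0.230% of short ones. The fitted log2 ratio was 4.36 ± 0.0991 (SE, edgeR adjusted p = 4.6e-15), and every long value lay far above every short value. Of its 14031 spleen IgM clonotypes, 29.8% were long and 1.65% were short. Its usual junction start is the longest of the tested V genes, 17 bases, and is set here beside those of IGHV8-8, IGHV6-3 and IGHV1-26, a common J558 gene.
IGHV1-62-2: tgtgcaagacacgaaga
IGHV8-8: tgtgctcgaat
IGHV1-26: tgtgcaaga
IGHV6-3: tgcacagg
The starts of the long-class genes reach further into the junction, by 8 bases between IGHV1-62-2 and IGHV1-26.

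The IGHV8 family leaned furthest to the long class as a family. It made up 5.39%, 5.42%, 7.98% and 6.62% of long clonotypes and 0.428%, 0.376%, 0.773% and 0.459% of short ones, a ratio of 12.5. Of its 5 members 3 were tested, and all 3 were called higher in long. IGHV8-8 (chr12:115294066-115294362) was at 3.97% ± 0.894 of long and 0.291% ± 0.107 of short clonotypes (SD, n = 4; log2 ratio 3.74 ± 0.0917 SE, edgeR adjusted p = 7.8e-15). IGHV8-12 had a log2 ratio of 3.49 ± 0.109 and IGHV8-5 one of 2.18 ± 0.259, the latter with 0 short clonotypes in replicate 1. Their usual starts had 11 bases each.

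Among the other named genes of the long class were IGHV5-16 (log2 ratio 1.58 ± 0.133 SE), IGHV2-9-1 and IGHV2-5 of the Q52 family (1.55 ± 0.109 and 1.38 ± 0.111), IGHV3-8 (1.31 ± 0.247) and IGHV15-2 (1.85 ± 0.298). The 7 of 12 IGHV2 genes that were tested were each called higher in long, with a median log2 ratio of 0.76 against 0.06 over all 86 V genes. Of 9 tested IGHV5 genes among 15, 7 were called higher in long and 1, IGHV5-17, higher in short (log2 ratio −0.27), with a median of 0.90. The 2 IGHV3 genes were both called higher in long, with a median of 0.75, as were the 3 IGHV7 genes with 0.76. By family, IGHV2 was at 4.59% ± 1.01 of long and 2.22% ± 0.763 of short clonotypes, and IGHV5 at 9.31% ± 1.92 and 5.78% ± 0.635 (SD, n = 4). IGHV3 stood at 3.19% ± 0.762 and 2.57% ± 0.349, a gap of 0.615 points that was 0.0154 with 15 or more against 9 or fewer residues, and IGHV7 at 1.66% ± 0.731 and 1.15% ± 0.484. Each of these families was higher in long in 4 of 4 replicates (exact paired permutation p = 0.125, adjusted p = 0.139 over the 10 families).

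One gene of the list is there through its junction bounds. IGHV1-87 had 14, 111, 76 and 103 long clonotypes in replicates 1 to 4, in all 304, with 10 middle and 0 of 83031 short ones. All 304 have a deposited junction that does not start at a cysteine, so their CDR3 length is not measured between the usual anchors. Such junctions made up 489 of 67036 long clonotypes (0.729%), 161 of them IGHV1-5, against 22 short ones (0.0265%), all of these IGHV1-83. With junctions from cysteine to tryptophan alone, a setting added after the data were seen, 64 of 84 V genes were called, 33 higher in long and 31 higher in short.

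The short class was led by IGHV6 and IGHV14. IGHV6, known as J606, made up 4.71%, 16.2%, 9.64% and 8.53% of short clonotypes in replicates 1 to 4 and 0.253%, 1.92%, 1.13% and 0.972% of long ones, a ratio of 9.14. Its level varied more than 3-fold between replicates, but short was above long in each. IGHV6-3 (chr12:114391712-114392010) was at 4.40%, 12.0%, 7.61% and 6.89% of short and 0.0634%, 1.08%, 0.708% and 0.667% of long clonotypes (log2 ratio −3.58 ± 0.0821 SE, edgeR adjusted p = 4.6e-15). Of its 22227 clonotypes 34.5% were short and 2.54% long, and its usual start had 8 bases. IGHV6-6 followed with a log2 ratio of −2.46 ± 0.0825.

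IGHV14, known as SM7, was at 16.2%, 5.17%, 7.87% and 8.90% of short and 5.32%, 1.60%, 2.69% and 2.70% of long clonotypes. All 4 of its genes tested were called higher in short, with a median log2 ratio of −2.61. IGHV14-2 stood at −2.91 ± 0.145, IGHV14-1 at −2.83 ± 0.278 and IGHV14-4 at −2.39 ± 0.0711 (SE). Within IGHJ2 alone or IGHJ4 alone, IGHV14-1 was no longer called (log2 ratios −0.86 and −1.48, edgeR adjusted p = 0.107 and 0.0647). From the IGHV1 family, IGHV1-11 (−3.29 ± 0.391), IGHV1-15 (−1.63 ± 0.154) and IGHV1-70 (−1.80 ± 0.652) were named, the last with 0 to 4 long clonotypes a replicate; its call was lost without replicate 3 (−1.23, edgeR adjusted p = 0.0955). Of 45 IGHV1 genes tested, 9 were called higher in long and 20 higher in short, with a median of −0.24. The family as a whole was at 63.4% ± 5.48 of long and 59.8% ± 4.28 of short clonotypes (SD, n = 4), higher in long in 4 of 4 replicates. This gap of 3.59 points was 2.07 without replicate 1, 7.94 with 2 or more copies and 12.3 with copies as weights. The family includes IGHV1-62-2, which alone was at 6.26% of long and 0.229% of short clonotypes, a wider gap than that of the family.

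IGHV10 was at 0%, 3.11%, 1.21% and 1.18% of long and 0.428%, 4.32%, 1.896% and 1.99% of short clonotypes, with IGHV10-1 called higher in short and IGHV10-3 higher in long. IGHV9 was mixed, at 5.57% ± 0.799 of long and 6.07% ± 0.293 of short, with short higher in 3 of 4 replicates (exact paired permutation p = 0.375). Its member IGHV9-1 was called higher in short (log2 ratio −1.48 ± 0.0991 SE). Of the V genes known from B-1a cells, a self-renewing B cell type of the body cavities, 1 of 3 had enough clonotypes to be tested: IGHV11-2 was at 0.0253% ± 0.0214 of long and 0.146% ± 0.108 of short clonotypes (log2 ratio −1.59 ± 0.361 SE, edgeR adjusted p = 0.00099). It had 0, 15, 4 and 5 long and 5, 40, 21 and 16 short clonotypes, so the value rests on few. The other 2, which failed the low-count filter and have no test, had more long than short clonotypes: IGHV12-3 had 0, 18, 4 and 2 long and 0, 1, 0 and 0 short ones, and IGHV11-1 6 long and 3 short in all. The 3 genes thus had no common direction.

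The long-class V genes tended to have longer usual starts. The 3 tested genes with an 8-base start, IGHV6-3, IGHV14-1 and IGHV14-4, had a median log2 ratio of −2.83. The 53 with 9 bases had −0.27, with 10 called higher in long and 26 higher in short. The 22 with 10 or 11 bases had 0.91, with 17 and 2, and the 7 with 12 or more had 0.80, with 6 and 1. Over the 85 V genes with a usual start, Pearson's r was 0.53 and Spearman's rho 0.60, a description across genes that share libraries. Genes with the same start length still spread widely: those of 9 bases ran from −2.91 to 1.85. IGHV11-2 and IGHV1-11 lay on the short side with starts of 14 and 10 bases.

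**Figure D3:**
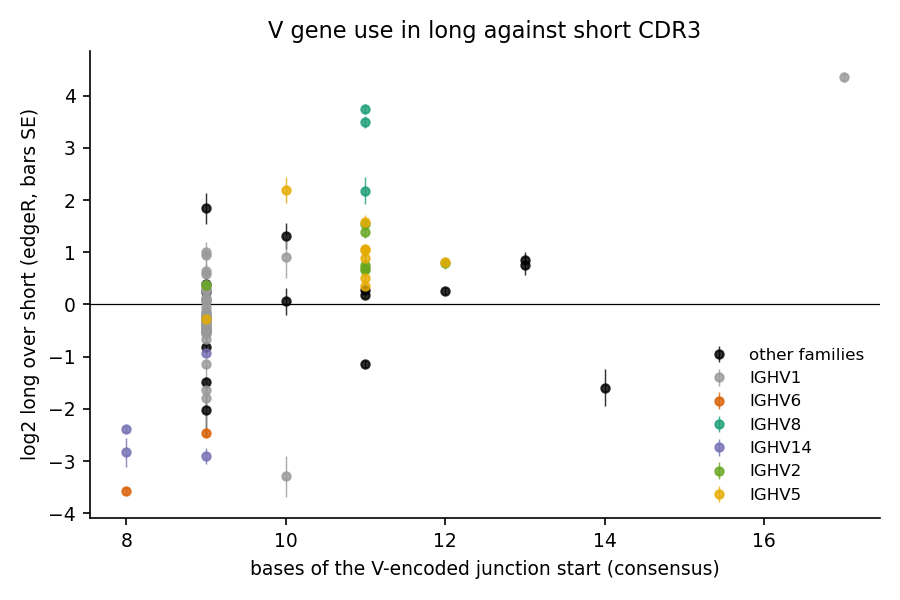
Log2 ratio of clonotypes, long over short (edgeR, bars SE), against the bases of the usual V-encoded junction start, 1 point per V gene, coloured by family. IGHV6 and most of IGHV14 lie low at 8 or 9 bases, IGHV8 high at 11, and IGHV1-62-2 alone at 17 bases with 4.36.

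Within IGHJ2 alone 37 of 62 V genes tested were called, 19 higher in long and 18 higher in short. Within IGHJ4 alone 28 of 73 were called, 15 and 13, against 66 of 86 over all J genes. Of the genes called there, 35 of 37 and 27 of 28 were also called over all J genes, 35 and 25 of them in the same direction.

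The residues that fill the CDR3 differed as well. In limma on log2 of each residue's share of the CDR3 (percent, with 0.01 added), 18 of 20 amino acids (90%) differed between long and short at an adjusted p under 0.05, 8 higher in long and 10 lower. Nearly every residue was called, and shares must add up to the whole, so again size matters more than the count. Tyrosine, the residue most common in antibody binding sites, was at 23.3%, 23.7%, 23.8% and 23.8% of long and 17.5%, 17.2%, 17.5% and 17.4% of short CDR3 residues. Serine was at 8.70%, 8.38%, 8.54% and 8.55% of long and 4.92%, 4.70%, 4.75% and 4.81% of short (log2 ratio 0.83 ± 0.016 SE, limma adjusted p = 4.0e-06). Both kept their direction within IGHJ2, within IGHJ4 and without the first 2 and last 3 residues. Taking off these outer residues leaves few in a short CDR3 and none in the shortest, which then drop out.

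Isoleucine (log2 ratio 1.03 ± 0.0572 SE), valine (0.68 ± 0.0414) and histidine (0.53 ± 0.0336) were called higher in long and kept that direction under those settings. Methionine (1.03 ± 0.0356), tryptophan (0.37 ± 0.0433) and glutamate (0.31 ± 0.103) were higher in long over all junctions, but the first 2 of these turned to lower in long within IGHJ2 and within IGHJ4, and all 3 without the outer residues. IGHJ4 is known to encode methionine and IGHJ1 tryptophan near the junction end, and the printed J ends carry atg and tgg, respectively, before the last codon.

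On the other side, leucine was at 1.91% ± 0.0543 of long and 3.73% ± 0.289 of short residues (log2 ratio −0.96 ± 0.065 SE), the residue furthest down. Arginine was at 7.80% ± 0.0495 and 10.8% ± 0.235, aspartate at 9.97% ± 0.115 and 12.1% ± 0.208 and glutamine at 0.352% ± 0.0270 and 0.493% ± 0.103 (SD, n = 4). Alanine, threonine, asparagine, phenylalanine, lysine and glycine were lower in long as well. Of these, phenylalanine turned to higher in long within IGHJ2 and IGHJ4, asparagine and glycine within IGHJ4, alanine and threonine without the outer residues, and lysine with copies as weights. Proline (0.07 ± 0.0315) and cysteine (0.21 ± 0.156) were not called.

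**Figure D4:**
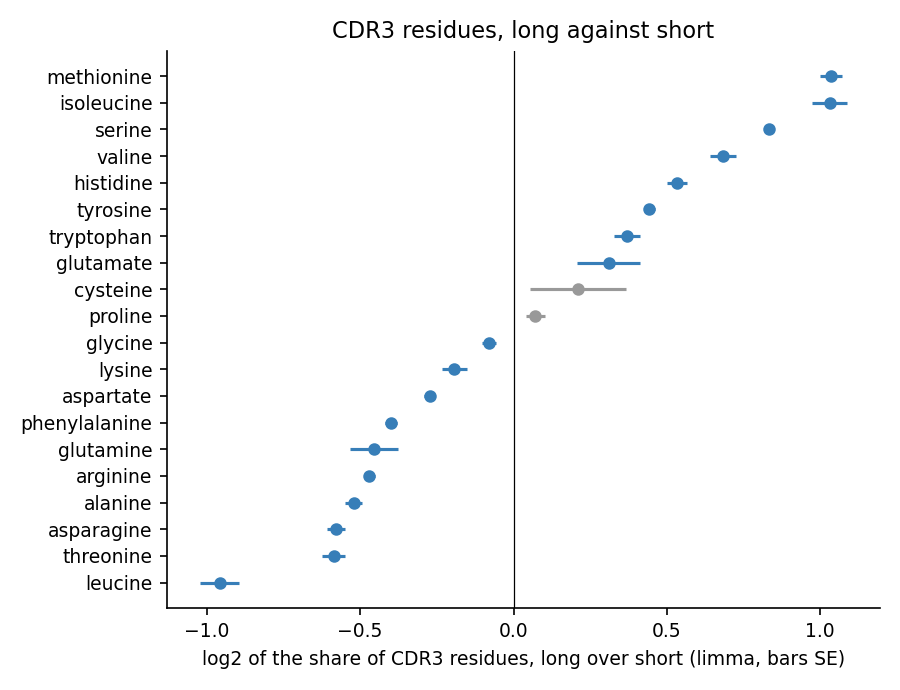
Log2 ratio of each amino acid's share of CDR3 residues, long over short (limma, bars SE), called residues in blue and the 2 not called in grey. Methionine and isoleucine lie furthest to the right at 1.03 each, and leucine furthest to the left at −0.96.

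Long CDR3s carried more net negative charge. Counting lysine and arginine as plus and aspartate and glutamate as minus, the mean charge was −0.669, −0.633, −0.580 and −0.598 in long and −0.147, −0.205, −0.158 and −0.145 in short clonotypes of replicates 1 to 4. The groups did not overlap, and the gap of −0.457 ± 0.0458 (SD, n = 4) was −0.445 within IGHJ2 and −0.429 within IGHJ4. This is charge per CDR3 and not per residue. Mean Kyte-Doolittle hydropathy per residue, on which higher is more water-avoiding, was −0.668 ± 0.0084 in long and −0.749 ± 0.00707 in short. Both differences had the same sign in 4 of 4 replicates (exact paired permutation p = 0.125).

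A cysteine inside the loop, which can form an extra disulphide bond, was in 6.78%, 2.82%, 3.65% and 3.25% of long and 1.22% to 1.59% of short clonotypes. Part of this lay in the junctions that do not start at a cysteine: with junctions from cysteine to tryptophan alone, the means were 3.20% and 1.39%, and the long values 5.23%, 2.27%, 2.85% and 2.47%. The gap of 2.73 points was 0.689 in both technical tables and 0.912 with copies as weights (exact paired permutation, adjusted p = 0.75). A long loop has more positions, and per residue cysteine was not called. At least 2 cysteines were in 4, 28, 28 and 34 long and 0, 5, 5 and 5 short clonotypes of replicates 1 to 4. The 0 of 1635 short clonotypes of replicate 1 allows a share of up to 0.183%, counting error only.

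V mutation, the share of aligned V bases that mismatch the called gene, differed between the classes by less than it did between replicates. It was 0.788%, 0.632%, 0.542% and 0.516% in long and 0.619%, 0.705%, 0.532% and 0.512% in short clonotypes, higher in long in 3 of 4 replicates (exact paired permutation p = 0.625). The mean difference of 0.0278 percentage points turned to −0.0195 without replicate 1 and to −0.0260 with junctions from cysteine to tryptophan alone. It was 0.0668 when only mismatches before the junction were counted, a setting added after the data were seen. There the means were 0.621% in long and 0.555% in short clonotypes, higher in long in 3 of 4 replicates. Clonotypes with 0 V mismatches made up 63.9% ± 7.15 of long and 60.5% ± 4.56 of short (SD, n = 4), also higher in long in 3 of 4 replicates (exact paired permutation p = 0.25). That gap of 3.36 points was 1.95 without replicate 2, 7.25 with 2 or more copies and 8.73 with copies as weights.

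At the very long end the mutation value climbed in each spleen. Clonotypes of 20 or more residues, 52, 655, 426 and 541 of them, averaged 2.58%, 1.45%, 1.91% and 1.83% mismatches. Of these clonotypes, 36.5%, 15.7%, 23.9% and 23.1% had a junction that does not start at a cysteine. Among those that do, mutation was 0.630%, 0.567%, 0.476% and 0.476%, close to the 0.470% to 0.699% of such clonotypes with 16 to 19 residues. The long clonotypes without the cysteine start averaged 6.11% mismatches. The climb was thus not seen among regular junctions.

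By mean copies the short clonotypes were the larger, by an amount that depended on the setting. The mean was 3.91, 1.87, 1.33 and 1.31 IgM copies per long clonotype and 4.11, 2.88, 1.77 and 1.69 per short clonotype, lower in long in 4 of 4 replicates (exact paired permutation p = 0.125). The classes overlap across replicates, since replicate 1 lies high in both. A short clonotype of replicate 2 that was not in both technical tables, and so is not printed above, held 7743 of the 104204 short copies there. A single copy was all there was for 42.1%, 92.2%, 83.8% and 86.8% of long and 30.8%, 82.9%, 80.9% and 82.0% of short clonotypes. The share in both technical tables was 0.951% to 3.46% of long and 2.32% to 10.8% of short clonotypes. Those few were 15, 992, 359 and 551 long and 38, 3915, 1295 and 1952 short clonotypes in replicates 1 to 4. Among them long clonotypes averaged more copies than short ones, by 1.08, with replicate 1 weighing as much as the others. Being in both tables itself takes 2 or more copies, so that setting also selects on copies. The difference of −0.507 copies over all clonotypes was −0.194 with 0 V mismatches and −0.225 with 15 or more against 9 or fewer residues.

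IgD copies of the same clonotype in the same spleen were seen for 1.08%, 0.666%, 0.384% and 0.697% of long and 0.367%, 1.09%, 0.572% and 1.01% of short clonotypes, with no common direction. Switched copies, IgA, IgG or IgE, were seen for 1.27%, 1.47%, 0.317% and 0.368% of long and 1.28%, 2.11%, 0.542% and 0.531% of short clonotypes. The switched share was lower in long in 4 of 4 replicates, with a difference of −0.261 ± 0.267 percentage points (SD, exact paired permutation p = 0.125), and the difference of replicate 1 was only −0.0170. Without replicate 2 the difference was −0.135. Among clonotypes with 1 IgM copy it was −0.153, also lower in long in 4 of 4 replicates (exact paired permutation p = 0.125), and with 0 V mismatches −0.215. The share was higher in long by 0.453 points among clonotypes with at least 2 IgM copies and by 3.09 among those in both technical tables. IgG alone was seen for 0.304% ± 0.276 of long and 0.477% ± 0.307 of short clonotypes, lower in long in 4 of 4 replicates, and IgA alone for 0.593% ± 0.398 and 0.676% ± 0.553, lower in 3 of 4.

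Short clonotypes were shared between animals far more often than long ones. A V gene, J gene and CDR3 amino acid sequence also found in another of the 4 spleens was held by 0.697%, 0.711%, 1.0003% and 0.918% of long and 20.9%, 14.96%, 17.5% and 16.7% of short clonotypes. The middle class was at 4.41%. The short share was 21.1 times the long share, in 4 of 4 replicates, with no overlap (exact paired permutation p = 0.125). A match needs every residue of the CDR3 to be the same, and length chose the classes, so sharing is not free of the selection. By junction nucleotides in place of amino acids, 0.253% ± 0.0669 of long and 6.67% ± 1.46 of short clonotypes were shared (SD, n = 4). The gap, long minus short, was −17.4 points within IGHJ2 and −20.5 within IGHJ4.

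Sharing rises with the number of clonotypes in the other spleens. With each spleen thinned to the clonotype number of replicate 1, a setting added after the data were seen, 0.0634%, 0%, 0.205% and 0.213% of long and 3.36%, 2.55%, 3.05% and 2.66% of short clonotypes were shared, and the gap shrank from −16.7 to −2.79 points. It was seen among single-copy clonotypes too, at 0.640% ± 0.347 of long and 14.6% ± 1.54 of short. Of the shared clonotypes, 22.5% to 45.5% of long and 33.9% to 41.1% of short were shared by nucleotides as well. Most shared clonotypes thus matched another spleen by amino acids alone. An amino acid sequence can have several nucleotide clonotypes in a spleen, so these are shares of clonotypes and not of amino acid sequences. By length, 32.9% ± 6.31 of clonotypes with 5 residues were shared, 12.3% ± 1.77 with 8, 2.20% ± 0.295 with 15, 1.27% ± 0.219 with 16 and 0.0855% ± 0.0583 with 18. Clonotypes found in all 4 spleens numbered 74, 143, 105 and 137 among short ones of replicates 1 to 4 and 0 among long ones in each replicate. A shared sequence is counted in each of its spleens, so these counts are not independent. A long sequence had to be among the 1578 long clonotypes of replicate 1 to be found in all 4. Carry-over of sequences between libraries was not tested as a part of this.

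**Figure D5:**
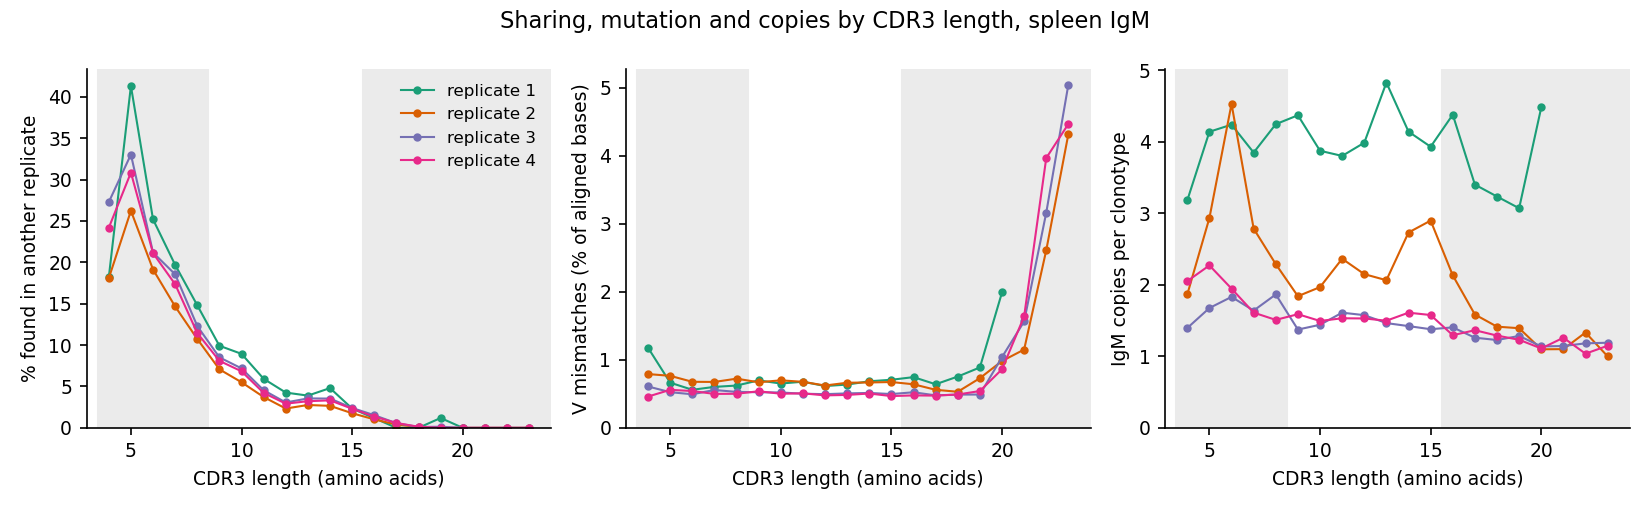
Percent of clonotypes found in another spleen (left), V mismatches in percent of aligned bases (middle) and IgM copies per clonotype (right) against CDR3 length, 1 line per replicate, lengths with 20 or more clonotypes, grey bands for short and long. Sharing falls from 32.9% at 5 residues to 1.27% at 16; mutation is flat up to about 19 residues, and the rise beyond it lies in junctions that do not start at a cysteine.

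Lymph node IgM of the same series showed the same turn of J genes, with IGHJ4 in 54.2% of long and 19.3% of short clonotypes and IGHJ2 in 12.3% and 60.3%. There 25080 clonotypes were long and 19251 short, and long made up 10.9% ± 0.501 and short 8.25% ± 0.129 of clonotypes, against 9.15% ± 0.513 and 10.8% ± 0.394 in spleen (SD, n = 4). Every lymph node lay above every spleen for the long share and below for the short share (exact permutation p = 0.0286, the smallest that 4 against 4 allow, adjusted p = 0.0629 over 11 measures). The gap between long and short was 27.0 points in spleen and 22.5 in lymph node for IGHJ1, −14.0 and −9.36 for IGHJ3, and −16.7 and −7.38 for sharing between animals, each with the same exact permutation p and adjusted p. None of these passed 0.05 after adjustment. IGHJ2, IGHJ4, V mutation, copies, IgD and switched shares had gaps whose difference between tissues had an exact permutation p of 0.571 or more. IGHV6 was at 1.28% of long and 9.34% of short lymph node clonotypes, and IGHV8 at 5.69% and 0.610%. Depth was not matched between the tissues for sharing. Spleens 2 to 4 had 144227 to 260953 middle-class IgM clonotypes and spleen 1 had 12726, against 18059 to 74310 in the lymph nodes. How much of the difference in sharing gaps goes with depth was not tested.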

How the data were processed

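Heavy chains were amplified from RNA with constant-region and V gene primers and molecular identifiers, per the labels' protocols, and mm10 is the build in the submitters' processing notes. The aligner: not given in the sources used here. Deposited tables list each sequence with V, J and constant gene, junction, a whole-number count called copies here (of identifiers or of reads, not stated) and V mismatches with the aligned length, a deposited measurement other than a count. PCR primers may favour some V genes, and whether they do so alike in long and short clonotypes was not tested.

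Here the 2 technical tables of a replicate were summed and IgM rows joined to clonotypes. Spleen libraries held 79235 to 683759 copies. Clonotypes per V gene were tested with edgeR 4.0.16 (quasi-likelihood, filterByExpr, TMM factors 0.922 to 1.11), with DESeq2 1.42.0 as an alternative. Residue shares were tested with limma 3.58.1 on log2(percent + 0.01). Both used R 4.3.3, Benjamini-Hochberg adjustment and the replicate number as a block, since long and short clonotypes come from the same libraries. Single values were tested by exact paired permutation over 16 sign flips, or over the 70 ways to set 4 spleens against 4 lymph nodes, with Python 3.11.15 and scipy 1.17.1. Whether the replicates are separate animals is taken from "biological_rep" in the titles. A usual V start or J end is the run of bases held by 50% or more of middle-class junctions, for V genes with 50 or more clonotypes; clonotypes match it up to the first different base. On simulated data, edgeR recovered 90% of 20 V genes changed 2-fold among 85 with 0 false calls, and limma 100% of 6 residues changed 1.5-fold among 20 with 0 false calls. The simulations left most features unchanged and used 1 fixed spread. In the data 66 of 86 V genes and 18 of 20 residues were called, so the simulated error rates need not hold there. V genes were named when adjusted p was under 0.05 with 1 direction in 4 of 4 replicates, up to 10 each way by log2 ratio; J genes, families of 1% or more and residues were all given. The members and lists were chosen with earlier results of these data known. D segments were not called here. Intervals and limits cover counting error only.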

Additional observations from a re-analysis of the deposited data

Results flagged for a closer look

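Of 65 sets of 4 per-replicate differences (long minus short), 14 held a replicate set far apart from the other 3, by a gap past Dixon's critical value; chance alone marks about 1 in 20 sets. Replicate 1, the spleen with fewest clonotypes, was the one apart in 12 of the 14. In it the IGHJ1 gap was 25.1 points against 27.5 to 27.7 in the others, the IGHV5 gap 1.63 against 3.87 to 4.33, and the share with 1 or more cysteines differed by 5.19 against 1.60 to 2.15. Of its V genes, IGHV3-8 differed by 0.192 points (others 0.0966 to 0.108), IGHV1-15 by −0.791 (−0.383 to −0.305) and IGHV11-2 by −0.306 (−0.0810 to −0.0388). Of its residues, methionine differed by 1.68 points (1.56 to 1.58), asparagine by −0.875 (−0.732 to −0.707), leucine by −1.31 (−2.06 to −1.95), tryptophan by 0.741 (0.448 to 0.487), glutamate by 0.982 (0.214 to 0.285) and cysteine by 0.171 (−0.00583 to 0.0106). Replicate 2 was apart for the IGHJ4 gap, 34.2 points against 34.5 in each of the others, and for the IGHV2 gap, 2.797 against 2.19 to 2.27.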

How the results depend on the processing

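The J gene, charge, hydropathy and sharing differences, and the mean gap in clonotypes with a cysteine, kept their direction under every alternative run; that cysteine gap shrank to 0.689 in both technical tables and 0.912 with copies as weights. Without the replicate block (exact permutation, 4 against 4), the gaps of 27.0 (IGHJ1), −47.4 (IGHJ2), −14.0 (IGHJ3) and 34.4 points (IGHJ4), of 0.0806 in hydropathy, −0.457 in charge, 2.73 points with a cysteine and −16.7 points in sharing had p = 0.0286, adjusted also 0.0286; that fit ignores the pairing. V genes called higher in long and in short numbered 34 and 32, against 17 and 12 without the block, 16 and 3 in both technical tables, 22 (long) with 18 or more against 7 or fewer residues, 19 and 15 with 2 or more copies, 19 and 18 in IGHJ2, 15 and 13 in IGHJ4, and 17 and 11 on copies; leaving out 1 replicate gave 29 to 34 and 27 to 33. Residues higher and lower in long numbered 8 and 10, against 4 and 4 in both technical tables, 4 lower with copies as weights and 6 lower in IGHJ4. The cause was not tested. Reversed log2 ratios of residues were, in both technical tables, −0.070 (cysteine), 2.10 (lysine) and −0.13 (proline); with copies as weights −0.36, 0.29 and −0.31; with junctions from cysteine to tryptophan −0.076 (cysteine); in IGHJ2 0.47 (phenylalanine), −0.21 (methionine) and −1.55 (tryptophan); in IGHJ4 0.30, −0.57 and −0.72, with 0.16 (glycine), 0.39 (asparagine) and −0.045 (proline); and without the outer residues 0.24 (alanine), −0.45 (glutamate), −0.23 (methionine), −0.43 (proline), 0.040 (threonine) and −0.46 (tryptophan). Reversed family gaps were −2.46 (IGHV3) and −0.0135 (IGHV7) in both technical tables, and −0.918 (IGHV3) and 0.146 (IGHV9) with copies as weights. The V mutation gap was −0.0260 with junctions from cysteine to tryptophan and −0.0195 to 0.0613 leaving out 1 replicate. The copies gap was 1.08 in both technical tables, the switched gap 3.09 there and 0.453 with 2 or more copies (−0.342 to −0.135 leaving out 1 replicate). The IgD gap was 0.0252 with 15 or more against 9 or fewer residues, 0.102 without junctions 1 base from a larger clonotype, 0.0541 with 0 V mismatches and −0.308 to 0.0712 leaving out 1 replicate. Spleen minus lymph node reversed in both technical tables to −5.55 (IGHJ2), 3.20 (copies) and 2.99 (switched), and ranged, leaving out 1 replicate, from −0.0108 to 1.68 (IGHJ2), −1.91 to 0.267 (IGHJ4), −0.0366 to 0.0441 (V mutation), −0.223 to 0.0451 (copies), −0.318 to 0.0613 (IgD) and −0.182 to 0.0255 (switched); the replicate block changed no call there. The shallow replicate 1 and the many single-copy clonotypes limit rare classes most. In both technical tables spleen replicate 1 held only 15 long and 38 short clonotypes, so the values of that setting rest on few there.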
